A study of Mus musculus with 9 samples.

Results

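Expression of 10 genes that govern the step from G1 into S phase was followed through 9 RNA-seq libraries of mouse bone marrow cells: the D cyclins Ccnd1, Ccnd2 and Ccnd3, the E cyclins Ccne1 and Ccne2, the kinases Cdk2, Cdk4 and Cdk6, the transcription factor E2f1 and the retinoblastoma gene Rb1. They were taken by symbol from a deposited table of 43629 gene identifiers, so they are 10 of 43629. The rule names genes by function and uses no measured value, although it was written with earlier results of these data known. The study asked how loss of CHD7, a chromatin remodelling ATPase, bears on leukaemia driven by the CBFB-MYH11 fusion. All mice were C57BL/6 and had been given pIpC, an artificial double-stranded RNA used to induce interferon. Cells were enriched with antibodies against CD117 (KIT), the stem cell factor receptor, and total RNA was sequenced, with 3 libraries in each of 3 groups. The WT group was labelled wild type. The KI group carried Mx1-Cre and Cbfb+/56M, a conditional knock-in of the fusion. KI_Chd7del carried Chd7f/f with the same Mx1-Cre and Cbfb+/56M, so that every KI_Chd7del comparison with WT holds both the fusion and the Chd7 allele.

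Mx1-Cre is switched on by interferon in blood-forming cells and in other cells that respond to it, so recombination is not limited to leukaemia-initiating cells. The WT label names no Cre, so a part of Cre itself cannot be told apart from the fusion in comparisons with WT. Ages, sexes, the time after pIpC and whether each library stands for a mouse of its own are not given in the sources used here; p-values therefore reflect only the spread among these libraries, which may be technical. RNA came from mixed cells: fewer cells of a type and less RNA per cell cannot be told apart in any value below.

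Cells commit to division in G1. D cyclins, induced by growth signals, bind CDK4 or CDK6, and E cyclins bind CDK2; both kinds of complex phosphorylate the retinoblastoma protein RB. Unphosphorylated RB holds E2F factors such as E2F1 in check, and phosphorylation releases them to switch on genes of DNA replication, among them the E cyclins. Blood progenitors use mainly the D cyclins D2 and D3, and CDK6 is the kinase most tied to the blood lineage.

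Column totals of the table were 43.2 to 46.2 M (WT), 37.7 to 39.0 M (KI) and 37.5 to 38.1 M (KI_Chd7del), and 20329 to 21964 genes were above 0 in a library. KI_Chd7del library 1 lay away from the other KI_Chd7del libraries on the third principal component (5.28% of the variance), at 45.9 against -19.5 and -28.7. Myh11, the fusion partner, had a mean of 7.33 in WT, 196 in KI and 176 in KI_Chd7del, in the order the labels give. Chd7 had a mean of 3733 in WT, 2307 in KI and 1859 in KI_Chd7del; its log2 difference between KI_Chd7del and KI of -0.29 did not pass (adjusted p = 0.121), and values per gene do not show whether the floxed part was gone, so the groups are named by their labels. Kit, the marker used for enrichment, was well above 0 in every library, with a mean of 7504 in WT, 3538 in KI and 7457 in KI_Chd7del.

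All 10 genes passed the filter on low values (at least 10 in at least 3 libraries) with 15997 genes tested in all. In KI against WT, 9 of the 10 passed the test, with 3 higher (Ccnd2, Cdk6 and Rb1) and 6 lower (Ccnd3, Ccne1, Ccne2, Cdk2, Cdk4 and E2f1), where 58.9% of all tested genes were called (31.8% higher and 27.2% lower). In KI_Chd7del against KI, 4 passed, with Ccne1 and Cdk4 higher and Ccnd2 and Rb1 lower, beside 40.4% of all tested genes (17.5% higher and 22.9% lower). In KI_Chd7del against WT, 8 passed, with Ccnd2 and Cdk6 higher and Ccnd3, Ccne1, Ccne2, Cdk2, E2f1 and Rb1 lower, beside 48.4% of all tested genes (24% higher and 24.3% lower). The median log2 difference over the 10 genes was -0.34, 0.20 and -0.33 in these comparisons, against 0.02, -0.01 and 0.02 over all tested genes. The libraries of the groups compared did not overlap for 9, 6 and 8 of the 10 genes, against 67.6%, 52% and 57.6% of all tested genes. Each group enters 2 of the 3 comparisons, so the comparisons are not independent of each other. A gene was called at a Benjamini-Hochberg adjusted p under 0.05 over all tested genes, in 1 limma fit of log2(value + 1), and each log2 difference below is on that scale with the SE of the fit. Without KI_Chd7del library 1, 5 members passed against KI and 8 against WT.

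**Figure D1:**
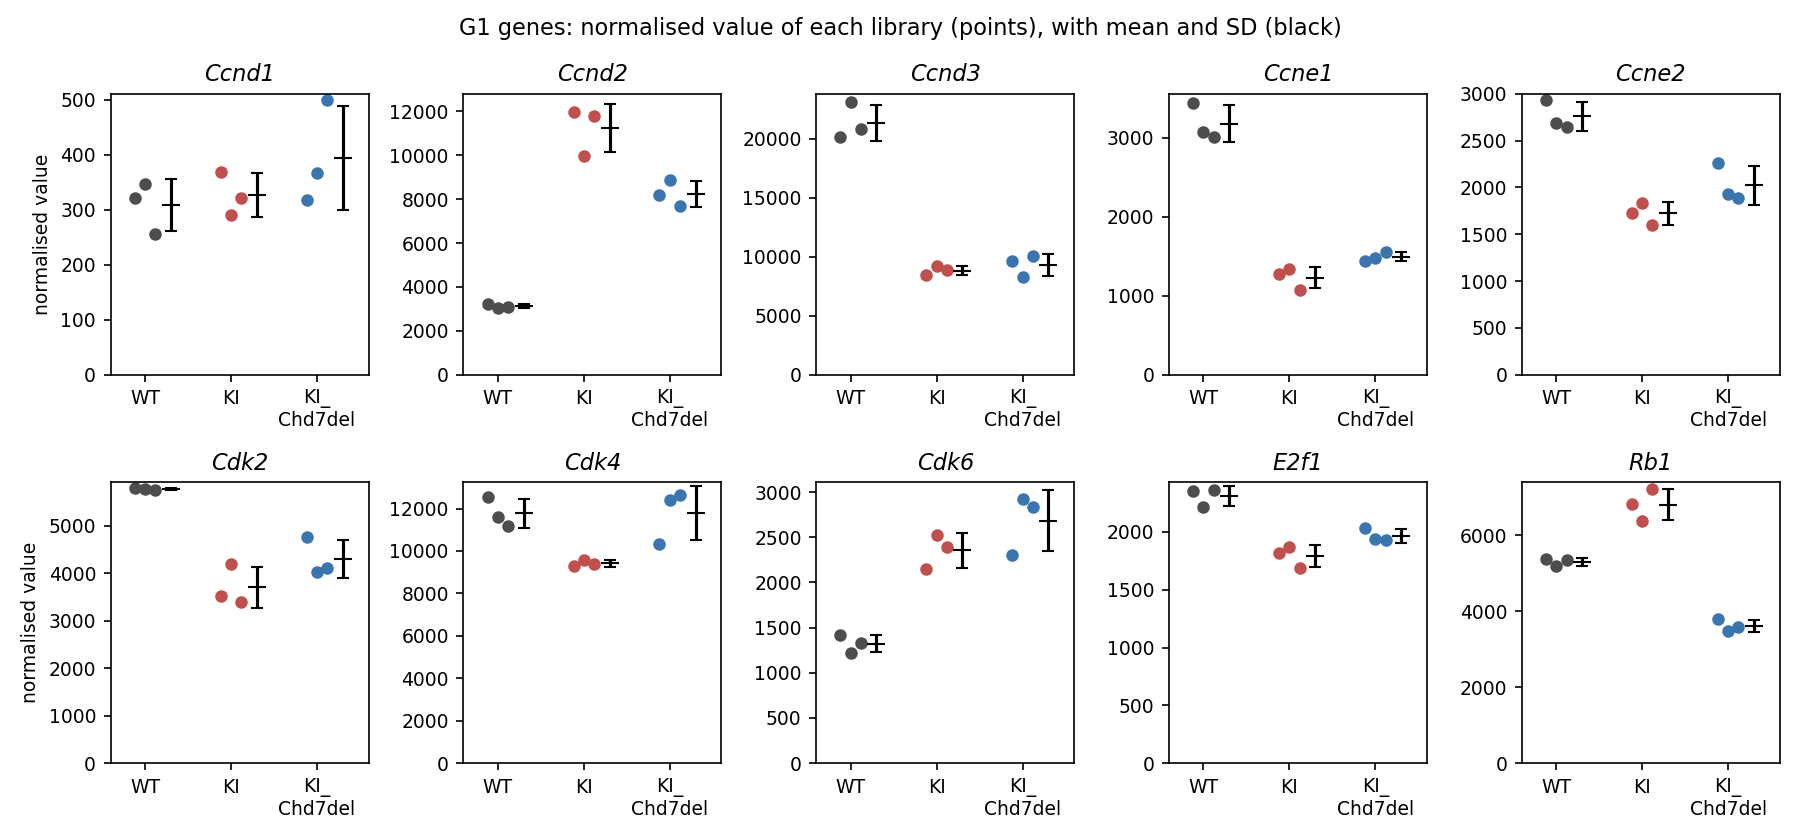
Normalised value (vertical axes, from 0) of each of the 10 genes in WT, KI and KI_Chd7del. Points are libraries and black marks are the mean and SD of 3 libraries. Ccnd2 was lowest and Ccnd3 highest in the 3 WT libraries, and Rb1 was lowest in the 3 KI_Chd7del libraries.

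In both groups that carried the fusion, Ccnd2 was higher and Ccnd3 lower than in WT. Ccnd2 (cyclin D2; ENSMUSG00000000184, chr6:127125162-127152193, GRCm38) had normalised values of 3221, 3055 and 3067 (WT libraries), 11978, 9961 and 11774 (KI) and 8170, 8860 and 7695 (KI_Chd7del). The 3 groups did not overlap, with WT lowest and KI highest. Against WT, Ccnd2 rose 3.60-fold in KI (log2 1.85, SE 0.08, adjusted p = 3.81e-07) and 2.64-fold in KI_Chd7del (log2 1.40, adjusted p = 4.99e-06). Between the fusion groups it fell by 0.44 on the log2 scale in KI_Chd7del (SE 0.08, adjusted p = 0.00262).

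Ccnd3 (cyclin D3; ENSMUSG00000034165, chr17:47505051-47599691) had 20164, 23106 and 20843 (WT libraries), 8480, 9181 and 8844 (KI) and 9610, 8250 and 10051 (KI_Chd7del). The WT libraries lay above all others, and the fusion groups overlapped. The gene fell 2.42-fold in KI (log2 -1.27, SE 0.08, adjusted p = 2.56e-06) and 2.30-fold in KI_Chd7del (log2 -1.20, adjusted p = 1.23e-05) against WT. KI_Chd7del minus KI was 0.07 (SE 0.08, adjusted p = 0.521). Its exons share 361 bases with Bysl on the other strand (1318 to 1945), which stood far below Ccnd3.

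Ccnd1 (cyclin D1; ENSMUSG00000070348, chr7:144929931-144939925) was the lowest of the D cyclins, with 322, 347 and 256 (WT libraries), 369, 290 and 321 (KI) and 317, 366 and 499 (KI_Chd7del). All 3 groups overlapped, and no comparison passed (log2 0.09, 0.25 and 0.34 for KI minus WT, KI_Chd7del minus KI and KI_Chd7del minus WT, each with SE 0.18; adjusted p = 0.703, 0.303 and 0.159). Its exons share 1100 bases with LTO1 on the other strand, whose values were 578 to 675 and above those of Ccnd1. The sources used here do not state whether counting used strand, so reads of the pair could not be told apart.

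A ratio of 2 genes within a library does not depend on a scaling factor applied to the whole library, although quantile normalisation can change it. The log2 ratio of Ccnd2 to Ccnd3 was -2.78 ± 0.14 in WT, 0.34 ± 0.20 in KI and -0.17 ± 0.25 in KI_Chd7del (SD, n = 3, no length correction), a difference of 3.12, or 8.69-fold, between KI and WT. The groups did not overlap in any of the comparisons, and each exact 2-sided permutation p was 0.1, the smallest that 3 against 3 libraries can give (0.115 after Benjamini-Hochberg adjustment over 15 tests of 5 ratios). Per kilobase of the longest principal transcript, Ccnd3 made up 94.6% ± 0.44 of the D cyclin level in WT, 69.2% ± 2.92 in KI and 75.7% ± 2.98 in KI_Chd7del (SD, n = 3). The share of Ccnd2 was 4.62% ± 0.41, 29.4% ± 2.77 and 22.5% ± 3.07, and that of Ccnd1 was 0.771%, 1.45% and 1.81%. These shares rest on the transcript length: with all annotated exons merged, Ccnd2 took 11.7%, 52.5% and 43.4% and Ccnd3 86.0%, 44.4% and 52.4%, so which of the pair led in KI differed between the length models.

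**Figure D2:**
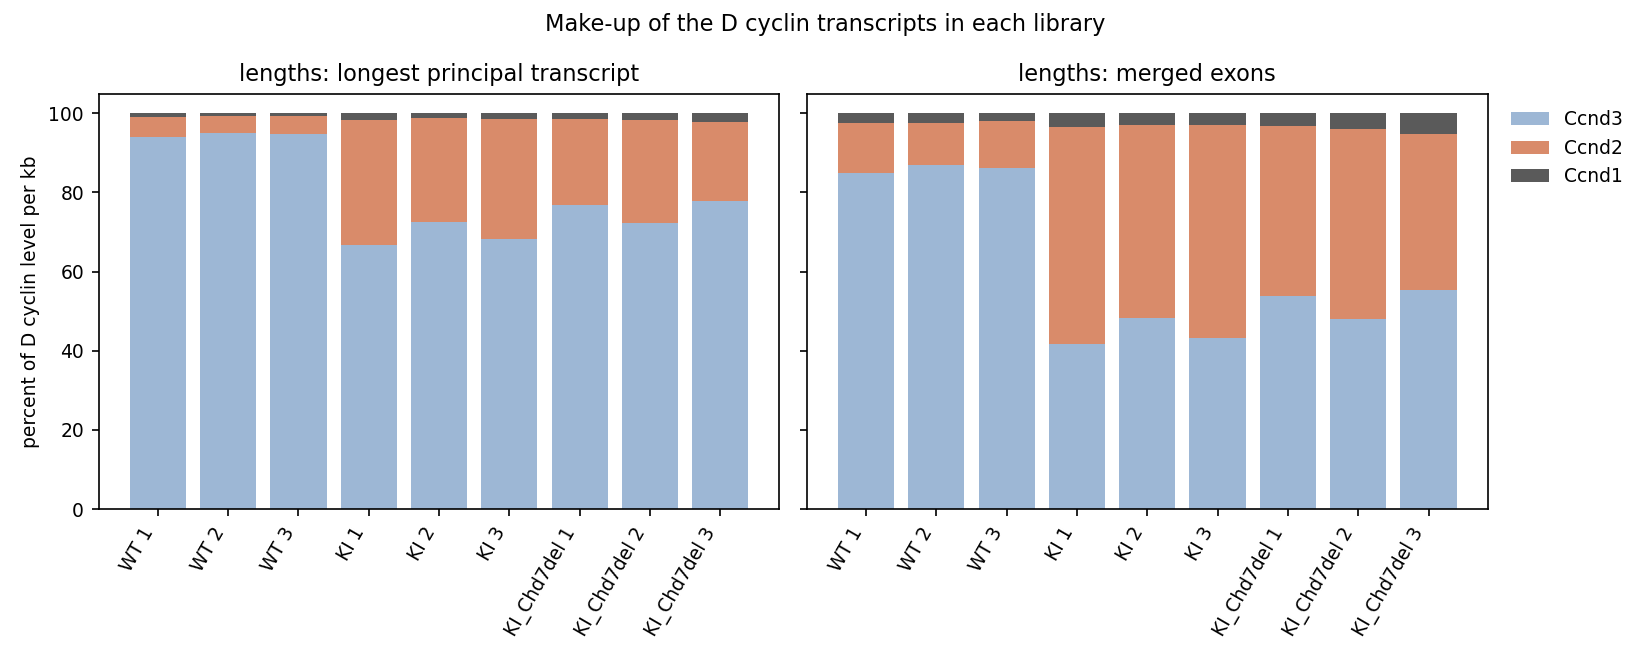
Percent of the summed D cyclin level per kilobase (vertical axis) held by Ccnd3, Ccnd2 and Ccnd1 in each of the 9 libraries, for 2 choices of gene length. Ccnd2 took a larger share in each KI and KI_Chd7del library than in any WT library under both choices.

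Both E cyclins, the partners of CDK2, were lower in KI and in KI_Chd7del than in WT. Ccne1 (cyclin E1; ENSMUSG00000002068, chr7:38097984-38107534) had 3440, 3074 and 3004 (WT libraries), 1272, 1336 and 1076 (KI) and 1443, 1481 and 1553 (KI_Chd7del). The groups did not overlap, in the order KI, KI_Chd7del, WT from low to high. Ccne1 was 2.59-fold lower in KI than in WT (log2 -1.37, SE 0.09, adjusted p = 2.34e-06) and 2.12-fold lower in KI_Chd7del than in WT (log2 -1.09, adjusted p = 2.67e-05). It was 1.22-fold higher in KI_Chd7del than in KI (log2 0.29, SE 0.09, adjusted p = 0.0282). That last call was lost without KI library 3 (log2 0.19, adjusted p = 0.0821), without KI_Chd7del library 2 (adjusted p = 0.0628) and without KI_Chd7del library 3 (adjusted p = 0.0845).

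Ccne2 (cyclin E2; ENSMUSG00000028212, chr4:11191351-11204779) had 2936, 2693 and 2644 (WT libraries), 1729, 1837 and 1600 (KI) and 2262, 1925 and 1883 (KI_Chd7del). The groups did not overlap and stood in the same order as for Ccne1. It fell 1.60-fold in KI (log2 -0.68, SE 0.08, adjusted p = 0.000109) and 1.37-fold in KI_Chd7del (log2 -0.45, adjusted p = 0.00210) against WT. KI_Chd7del minus KI was 0.23 (adjusted p = 0.0543), and it passed at 0.28 without KI library 2 (adjusted p = 0.0431) or without KI_Chd7del library 3 (adjusted p = 0.0489). The log2 ratio of Ccne1 to Ccne2 was 0.20 ± 0.02 in WT, -0.49 ± 0.07 in KI and -0.43 ± 0.19 in KI_Chd7del (SD, n = 3). The decrease in Ccne1 was thus the larger of the pair, and WT overlapped neither of the other groups (exact permutation p = 0.1 for both), while KI and KI_Chd7del overlapped (exact permutation p = 0.7). Per kilobase, Ccne1 held 63.3% of the E cyclin level in WT, 51.7% in KI and 52.6% in KI_Chd7del with the longest principal transcripts, and 60.1%, 48.3% and 49.3% with merged exons, so which of the pair led in the fusion groups differed between the length models. Exons of Ccne2 share 609 bases with Ints8 on the other strand (2173 to 2685), whose reads could not be told apart from those of Ccne2 where they overlap.

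Among the kinases, Cdk6 was higher and Cdk2 lower in both fusion groups than in WT, and Cdk4 was lowest in KI. Cdk2 (the partner of E and A cyclins; ENSMUSG00000025358, chr10:128697939-128705031) had 5794, 5765 and 5743 (WT libraries), 3524, 4200 and 3387 (KI) and 4765, 4024 and 4108 (KI_Chd7del). The WT libraries lay above the rest, and KI and KI_Chd7del overlapped. The gene fell 1.56-fold in KI (log2 -0.65, SE 0.09, adjusted p = 0.000220) and 1.35-fold in KI_Chd7del (log2 -0.43, adjusted p = 0.00375) against WT, and KI_Chd7del minus KI was 0.22 (adjusted p = 0.0799), which passed at 0.31 without KI library 2 (adjusted p = 0.0126).

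Cdk4 (a kinase of the D cyclins; ENSMUSG00000006728, chr10:127063534-127067920) had 12529, 11606 and 11171 (WT libraries), 9277, 9588 and 9368 (KI) and 10315, 12383 and 12651 (KI_Chd7del). All 3 KI libraries lay below every other library, and WT and KI_Chd7del overlapped. Cdk4 fell by 0.32 from WT to KI (SE 0.08, adjusted p = 0.00706), a difference that was -0.09 and did not pass when libraries were scaled to their column totals (adjusted p = 0.423). It was 1.25-fold higher in KI_Chd7del than in KI (log2 0.32, SE 0.08, adjusted p = 0.0128). KI_Chd7del minus WT was -0.00251 (SE 0.08, adjusted p = 0.983), and 0.24 with a call (adjusted p = 0.0471) when scaled to column totals. Its exons share 641 bases with Tspan31 on the other strand (862 to 1557), whose reads could not be told apart from those of Cdk4 where they overlap.

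Cdk6 (the other kinase of the D cyclins; ENSMUSG00000040274, chr5:3341485-3531008) had 1415, 1222 and 1328 (WT libraries), 2146, 2529 and 2393 (KI) and 2300, 2923 and 2831 (KI_Chd7del). The WT libraries were lowest and the fusion groups overlapped. It rose 1.78-fold in KI (log2 0.83, SE 0.10, adjusted p = 0.000109) and 2.02-fold in KI_Chd7del (log2 1.02, adjusted p = 7.36e-05) against WT. KI_Chd7del minus KI was 0.18 (SE 0.10, adjusted p = 0.181), and it passed at 0.29 without KI_Chd7del library 1 (adjusted p = 0.0277). Cdk4 stayed far above Cdk6: per kilobase, Cdk6 held 1.96% of the level of both in WT, 4.27% in KI and 3.90% in KI_Chd7del. The log2 ratio of Cdk6 to Cdk4 differed by 1.15 between KI and WT and by 1.02 between KI_Chd7del and WT, without overlap (exact permutation p = 0.1 for both).

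Promoter windows of RefSeq (GRCm38.p6, from 250 bases before the transcript start) were matched for 6 of the 10 genes, in 7 windows, and none was matched for Ccnd1, Ccnd2, Ccne2 or Rb1. They were searched on both strands for an E2F site (TTTCCCGC, TTTGGCGC, TTTCGCGC or TTTGCCGC), an E-box (CACGTG), a RUNX site (TGTGGT) and CCAAT. These letters occur in 2.26%, 7.15%, 16.8% and 37.4% of all 32851 windows of 300 bases. The stretches with matches in the 3 kinase genes are shown because their transcripts followed 3 different courses, and capitals mark the E2F match in Cdk2 and the E-boxes in Cdk4 and Cdk6. The Cdk2 piece is chr10:128705173-128705202 (minus strand), the Cdk4 piece chr10:127063285-127063484 (plus strand) and the Cdk6 piece chr5:3343643-3343731 (plus strand).
Cdk2: aaccaggaactGCGGGAAAgttgtgcagct
Cdk4: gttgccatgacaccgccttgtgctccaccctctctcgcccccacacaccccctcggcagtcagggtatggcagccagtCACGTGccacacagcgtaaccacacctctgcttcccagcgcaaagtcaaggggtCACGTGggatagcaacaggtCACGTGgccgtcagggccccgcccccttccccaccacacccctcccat
Cdk6: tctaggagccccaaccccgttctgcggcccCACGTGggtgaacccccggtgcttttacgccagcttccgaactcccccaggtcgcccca

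The E2F match of Cdk2 starts at -140 from the transcript start and reads TTTCCCGC on the minus strand of the window. An annotated exon of Pmel, a gene on the other strand, covers this site. Cdk4 held 4 E-boxes, at -172, -118, -98 and -11, of which the last lies outside the printed piece, and 0.0883% of all windows held 3 or more. It also held RUNX matches at -154 and -66. Cdk6 held 1 E-box at -220, in a window that lies inside the gene span given above, which starts at 3341485. CCAAT was found at -45 in Cdk2 and at -108 in Ccnd3. The Ccnd3 window starts at 47593217, so it too lies inside the gene span given for that gene. The windows matched for Ccne1 and E2f1 held none of these sites. A match describes letters only and does not show that a factor bound there.

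E2f1 and Rb1 are the factor and its restraint. E2f1 (ENSMUSG00000027490, chr2:154559407-154569892) had 2356, 2216 and 2366 (WT libraries), 1822, 1870 and 1684 (KI) and 2035, 1935 and 1929 (KI_Chd7del). The groups did not overlap, with KI lowest and WT highest, over a narrow range. E2f1 fell by 0.37 in KI (SE 0.06, adjusted p = 0.000408), which was -0.14 without a call (adjusted p = 0.0715) when scaled to column totals. It fell by 0.23 in KI_Chd7del (adjusted p = 0.00779) against WT, which was 0.01 with the opposite sign (adjusted p = 0.865) when scaled to column totals. KI_Chd7del minus KI was 0.13 (adjusted p = 0.0843).

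Rb1 (ENSMUSG00000022105, chr14:73183673-73325822) had 5361, 5174 and 5331 (WT libraries), 6809, 6380 and 7201 (KI) and 3788, 3474 and 3580 (KI_Chd7del). The groups did not overlap, and of the 10 genes it was the one with KI on one side of WT and KI_Chd7del on the other with a call for both. Rb1 rose 1.28-fold in KI against WT (log2 0.36, SE 0.06, adjusted p = 0.000460). It was 1.88-fold lower in KI_Chd7del than in KI (log2 -0.91, SE 0.06, adjusted p = 2.23e-05) and 1.46-fold lower than in WT (log2 -0.55, adjusted p = 7.67e-05). Each of these calls held in all 23 alternatives, where KI_Chd7del minus KI ran from -0.95 to -0.83. Genes within or beside Rb1 on the other strand, Lpar6 (285 to 725) and Rcbtb2 (1801 to 2030), share 408 and 488 exon bases with it.

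The log2 ratio of E2f1 to Rb1 was -1.19 ± 0.03 in WT, -1.92 ± 0.16 in KI and -0.88 ± 0.03 in KI_Chd7del (SD, n = 3). The ratio was 2.06-fold higher in KI_Chd7del than in KI and 1.25-fold higher than in WT, with no overlap of the groups (exact permutation p = 0.1 for each comparison, the smallest possible).

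**Figure D3:**
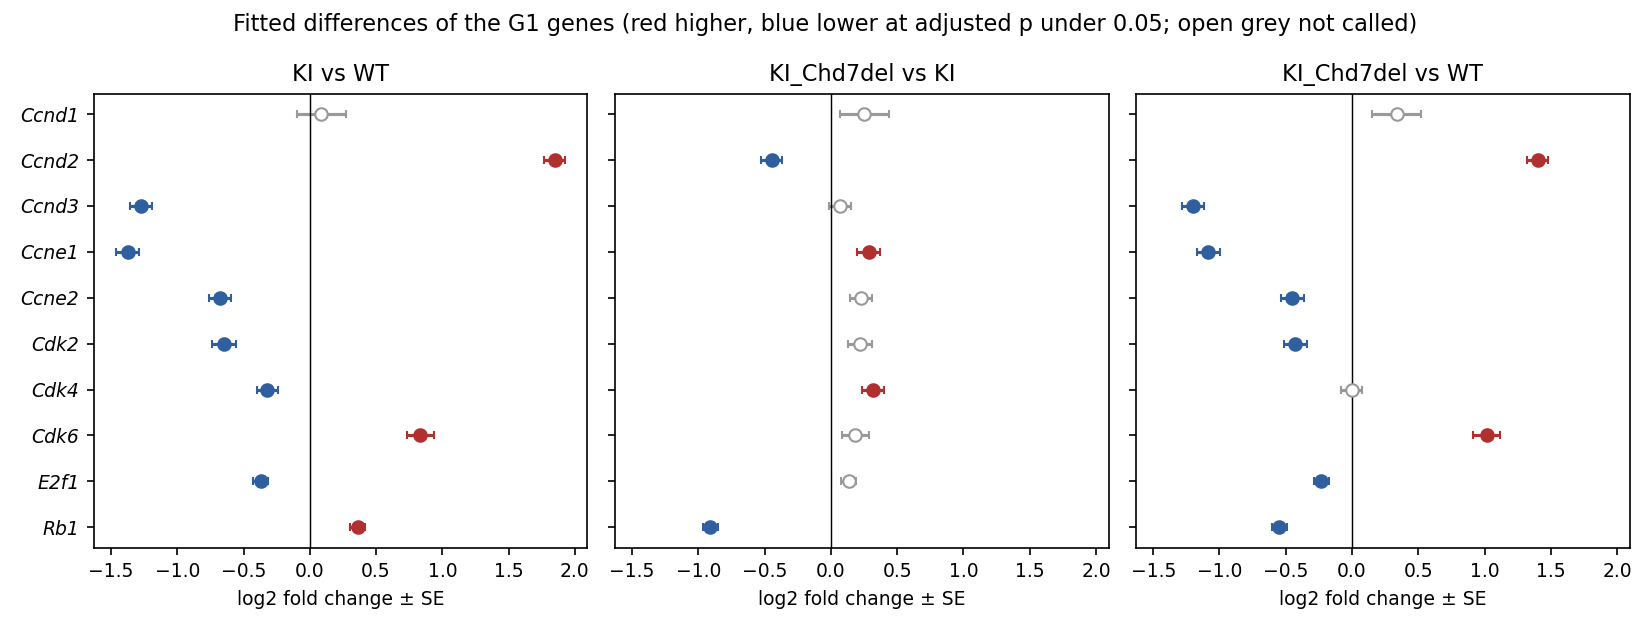
Log2 fold change with SE (horizontal axes) of the 10 genes in the 3 comparisons of the limma fit over 9 libraries. Filled points passed at an adjusted p under 0.05, red higher and blue lower; Ccnd2 reached 1.85 in KI against WT, and Rb1 had -0.91 in KI_Chd7del against KI.

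How the libraries are scaled bears on the small differences. Scaling to column totals moved the median of all tested genes from 0.02 to 0.25 in KI against WT and to 0.26 in KI_Chd7del against WT, and the percentage of called genes that were higher from 53.9 to 74.2 and from 49.7 to 78.7. Under it 7 members passed in each of these comparisons, and Ccne2 (-0.20, adjusted p = 0.0815) and Cdk2 (-0.18, adjusted p = 0.115) were no longer called in KI_Chd7del against WT, while Ccnd1 was (0.58, adjusted p = 0.0267). In KI_Chd7del against KI the percentage higher went from 43.4 to 56.3 with upper-quartile factors and 56.9 with quantile normalisation; 7 members then passed, since Ccne2, Cdk2 and E2f1 were called higher. Ccnd2, Ccnd3, Ccne1, Cdk6 and Rb1 passed in both comparisons with WT under each of the 23 alternatives, each time in the direction given above.

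**Figure D4:**
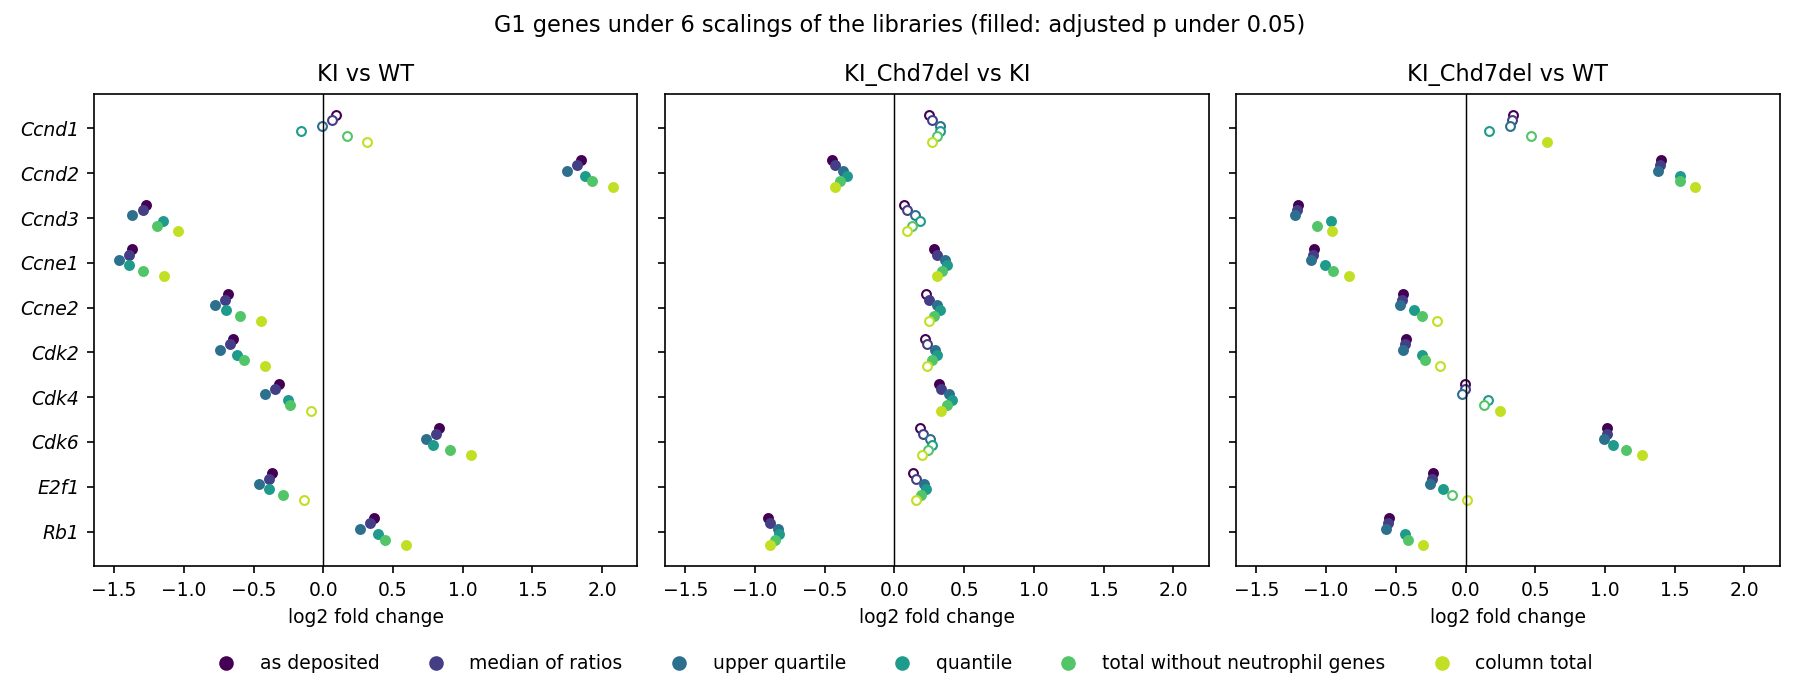
Log2 fold change (horizontal axes) of the 10 genes in the 3 comparisons with libraries as deposited and under 5 other scalings. Filled points passed at an adjusted p under 0.05. The points of Ccnd2, Ccnd3, Ccne1, Cdk6 and Rb1 stayed on 1 side of 0 within each comparison with WT. In KI_Chd7del against WT, E2f1 and Cdk4 crossed 0 under column totals. Cdk4 also did so with quantile normalisation and with the total without neutrophil genes. In KI against WT, Ccnd1 crossed 0 with upper-quartile factors and with quantile normalisation.

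Transcript levels of cell type markers moved with these groups, while numbers of cells were not measured. Beside the counts below, 31.8% of all tested genes were higher and 27.2% lower in KI than in WT. In KI_Chd7del against KI, 17.5% of all tested genes were higher and 22.9% lower. Late neutrophil genes (10 of 10 lower in KI than in WT, 10 of 10 higher in KI_Chd7del than in KI) made up 9.71% to 11.4% (WT), 0.384% to 1.75% (KI) and 3.21% to 4.18% (KI_Chd7del) of the column totals. Monocyte and macrophage genes (8 of 10 higher and 1 lower in KI than in WT) took 0.144% to 0.152%, 0.636% to 0.695% and 0.342% to 0.392%. Mast cell and basophil genes (7 of 10 higher and 3 lower in KI than in WT) took 0.0599% to 0.0622%, 0.231% to 0.384% and 0.146% to 0.187%. Erythroid genes (5 of 10 higher and 4 lower in KI than in WT, so without a common direction) took 0.0925% to 0.119%, 0.230% to 0.350% and 0.0594% to 0.114%. The stem and progenitor list (6 of 10 higher and 2 lower in KI than in WT) took 0.0274% to 0.0333%, 0.0655% to 0.0861% and 0.0812% to 0.0838%. Between the fusion groups, 8 of 10 erythroid genes were lower in KI_Chd7del and 1 higher. Lower and higher were 8 and 1 for monocyte and macrophage genes, 6 and 3 for mast cell and basophil genes, and 2 and 8 for stem and progenitor genes. Of the other lists, 6 of 6 early granule, 5 of 6 megakaryocyte and 7 of 9 B cell genes were higher. Eosinophil genes had 3 of 6 higher and 2 lower, and T and NK cell genes 1 of 6 higher and 2 lower. No marker of the 10 lists was at 0 in all libraries; Mcpt4 of the mast cell list and Ear6 of the eosinophil list were at 0 in some. The part of these cell types in the results for the G1 genes was not tested. With late neutrophil genes left out of the column total, a scaling chosen after seeing the data, 9, 7 and 7 members passed in KI against WT, KI_Chd7del against KI and KI_Chd7del against WT.

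Genes around the G1 machinery were read from 5 lists that share no gene with the 10. Of the CDK inhibitors, 6 of 7 were tested: Cdkn1a (p21), Cdkn1b (p27) and Cdkn2a (p16 and p19ARF) rose in KI against WT, and Cdkn2d (p19 INK4d) fell. The share called was 66.7%, near the 58.9% of all tested genes. Cdkn1a had 281, 228 and 223 (WT libraries), 1239, 905 and 1483 (KI) and 397, 369 and 414 (KI_Chd7del), without overlap of the groups. Its log2 difference was 2.28 in KI against WT (adjusted p = 5.68e-06) and -1.59 in KI_Chd7del against KI (adjusted p = 0.000220). Cdkn1b changed by 0.68 and -0.88 in these comparisons. Cdkn2a was low, with 2, 2 and 1 (WT libraries), 42, 30 and 35 (KI) and 7, 4 and 7 (KI_Chd7del), and fell by 2.41 between the fusion groups. Only its KI libraries reached 10, so Cdkn2a passed the filter through KI alone. Its calls, and its place in the counts of this list, are therefore not independent of that filter. Cdkn2d passed with log2 differences of -1.09 in KI and -1.11 in KI_Chd7del against WT. Cdkn1a was still higher in KI_Chd7del than in WT (log2 0.69, adjusted p = 0.00868). Cdkn2a was also called higher there (log2 1.38, adjusted p = 0.0060), but its libraries in both of these groups were all below 10. That call was lost with the largest pseudocount tried, so it does not show that Cdkn2a stayed raised. The share called in that comparison, with Cdkn2a counted, was 50%, near the 48.4% of all tested genes. In KI_Chd7del against KI 3 of 6 fell (22.9% of all tested genes were lower and 40.4% were called), and the other 3, Cdkn1c, Cdkn2c and Cdkn2d, had -0.09, -0.25 and -0.02 without a call.

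Of 15 RB family, E2F and DP genes, 9 were lower and 1 higher in KI than in WT, with a median of -0.20 (4 lower and 3 higher when scaled to column totals). The share of this list called in either direction was 66.7%, 53.3% and 60% in the 3 comparisons. That is near the 58.9%, 40.4% and 48.4% of all tested genes, so the total called does not set the list apart. By direction, 27.2% of all tested genes were lower and 31.8% higher in KI against WT. The shares were 22.9% and 17.5% in KI_Chd7del against KI, and 24.3% and 24% in KI_Chd7del against WT. Tfdp1, the DP partner of E2F factors, fell by 1.00 (adjusted p = 2.29e-06), from a mean of 19590 to 9794, and E2f6 and E2f8 fell by 0.46 and 0.48. Rbl2 (p130), an RB relative, was the one that rose (0.63, adjusted p = 6.35e-06) and had values of 3106, 3214 and 3387 (WT libraries), 5110, 4848 and 5053 (KI) and 3407, 3304 and 3272 (KI_Chd7del). Like Rb1 it was lower in KI_Chd7del than in KI (log2 -0.59, adjusted p = 6.33e-05), but its difference from WT was 0.04 (adjusted p = 0.506). Rbl1 (p107) had -0.03, -0.09 and -0.12 in the 3 comparisons, none of which passed. In KI_Chd7del against KI 3 of the 15 were higher (Tfdp2 0.55, E2f6 0.41 and Tfdp1 0.34) and 5 lower, with E2f2 at -0.41 and E2f7 at -0.42. Those lower numbered 2 with upper-quartile factors, and 2 or 3 without WT library 2, any KI library or KI_Chd7del library 2 or 3. In KI_Chd7del against WT 8 were lower and 1 higher, and 2 lower and 4 higher when scaled to column totals; Tfdp1 (-0.66), E2f2 (-0.79) and E2f4 (-0.42) had the smallest adjusted p among those that fell, and E2f5 had 0.46. Without WT library 1 or KI_Chd7del library 2, 5 were lower, and the call of E2f5 was lost without WT library 1 or 2, KI library 3 or any KI_Chd7del library.

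Among 16 genes of CDK activation and cyclin turnover, 5 fell and 2 rose in KI against WT (3 fell and 5 rose when scaled to column totals). The share called was 43.8%, 50% and 37.5% in the 3 comparisons, against 58.9%, 40.4% and 48.4% of all tested genes. Cdc25a, the phosphatase that activates CDK2, had 7859, 8023 and 8027 (WT libraries), 2902, 3512 and 2482 (KI) and 5004, 5135 and 4713 (KI_Chd7del). It was 2.71-fold lower in KI than in WT (log2 -1.44, adjusted p = 5.09e-06) and 1.69-fold higher in KI_Chd7del than in KI (log2 0.75, adjusted p = 0.000844). Fbxw7, which marks cyclin E for degradation, rose by 0.80 in KI against WT and fell by 0.60 in KI_Chd7del against KI. Ambra1, which does so for D cyclins, rose by 0.26 and fell by 0.23 in the same comparisons. Ccnh and Cks1b were lower in KI (log2 -0.38 and -0.42). In KI_Chd7del against KI 4 of the 16 rose, among them Ccnh (0.24) and Skp1a (0.24), and 4 fell, among them Fzr1 (-0.34). Against WT, 6 fell in KI_Chd7del, with Cdc25a at -0.69, Fzr1 at -0.24 and Cks1b at -0.25, and 1 fell while 7 rose when scaled to column totals.

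Of 33 genes that E2F factors are known to switch on in S phase, 27 were lower and 3 higher in KI than in WT, with a median of -0.49, where 27.2% of all tested genes were lower and 31.8% higher. Rrm2, a ribonucleotide reductase subunit, Rfc4, a clamp loader subunit, and Cdc6, an origin licensing factor, had -0.92, -0.82 and -0.76. Pola1 (0.27), Pole (0.26) and Dnmt1 (0.24) were the 3 that rose. In KI_Chd7del against KI 16 rose and 17 were not called, where 17.5% of all tested genes were higher and 40.4% called in either direction; Chek1, Cdc45 and Ung had 0.48, 0.40 and 0.38. That count was 8 without KI library 3 and 7 without KI_Chd7del library 3. In KI_Chd7del against WT 22 were lower and 3 higher (Ung 0.26, Pola1 0.22 and Pole 0.20), where 24.3% of all tested genes were lower and 24% higher, and 9 were lower when scaled to column totals. Those lower with the smallest adjusted p were Rrm2 (-0.82), Cdc6 (-0.61) and Ccna2 (-0.53). Of the 3 higher, 1 passed without WT library 2 or without KI_Chd7del library 2.

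Of 20 mitosis genes, 15 were lower in KI than in WT and 18 in KI_Chd7del than in WT, with medians of -0.44 and -0.43 (10 and 11 lower when scaled to column totals), where 27.2% and 24.3% of all tested genes were lower. Nuf2, Cdk1 and Birc5 had -0.70, -0.70 and -0.67 in KI, and Ccnb2, Nuf2 and Cdc20 had -0.64, -0.57 and -0.53 in KI_Chd7del, against WT. Mki67 did not pass in either comparison (0.08 and -0.18). Between the fusion groups 3 fell, Ccnb1 (-0.26), Kif20a (-0.22) and Cenpe (-0.25), and 17 were not called, where 22.9% of all tested genes were lower; without KI_Chd7del library 1, 6 fell, and the call of Cenpe was lost without WT library 3, KI library 2 or 3 or KI_Chd7del library 2. With upper-quartile factors 1 of the 20 fell and 2 rose.

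**Figure D5:**
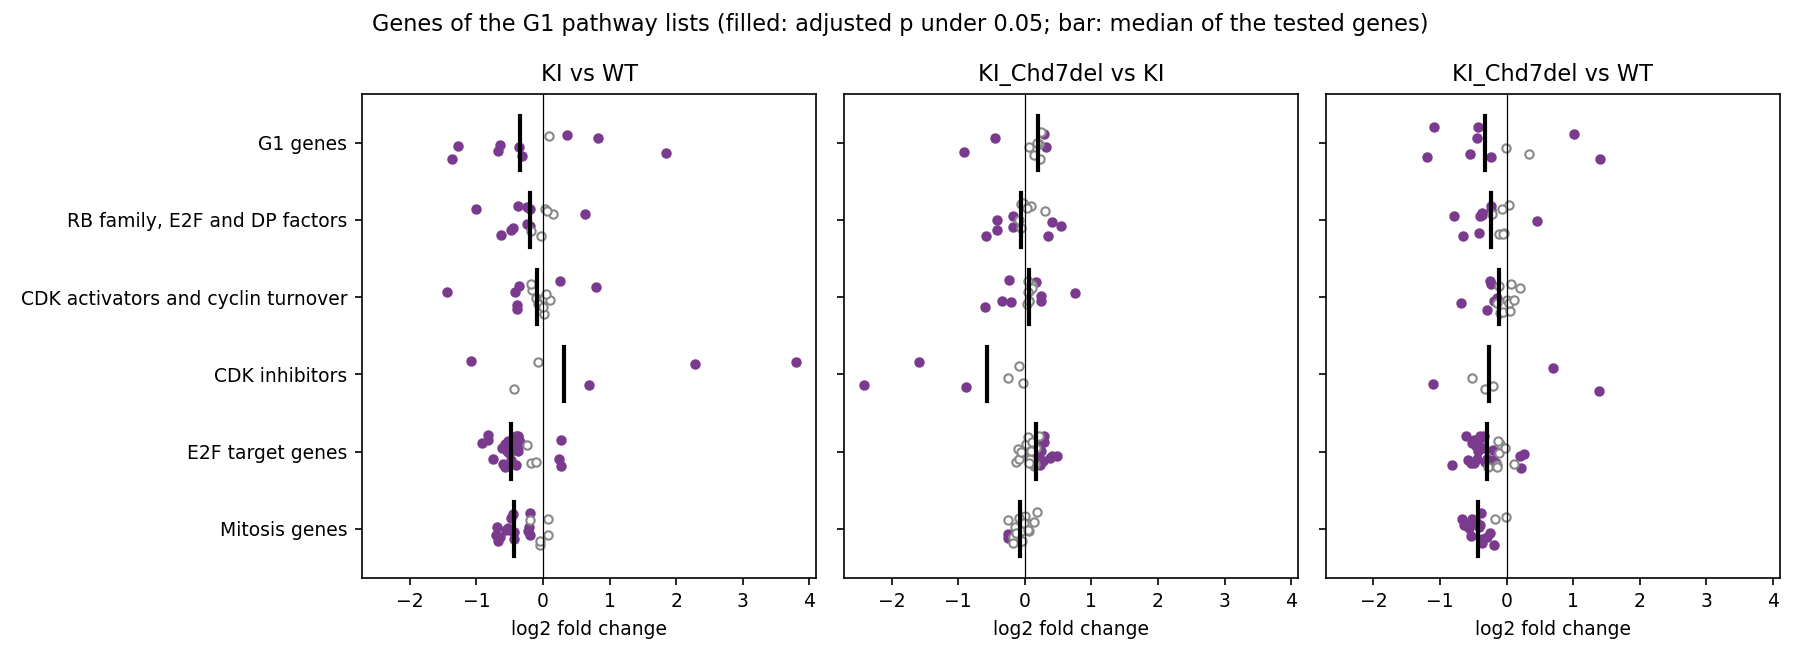
Log2 fold change (horizontal axes) of each tested gene of the 10 G1 genes and of the 5 surrounding lists, by comparison. Filled points passed at an adjusted p under 0.05 and the bars are medians over the tested genes; the E2F target median was -0.49 in KI against WT, 0.16 in KI_Chd7del against KI and -0.29 in KI_Chd7del against WT.

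The 3 members that varied most over the 9 libraries were Ccnd2, Ccne1 and Ccnd3, with an SD of 0.84, 0.63 and 0.63 in log2(value + 1). The tested genes whose values ran most like Ccnd2 were Papss2, Dnase2b and Hrh4 (Pearson r of 0.998, 0.998 and 0.997); Papss2 had means of 1129, 6430 and 4215 in WT, KI and KI_Chd7del, and Dnase2b was listed at 0 in WT. Closest to Ccne1 were Scrn3, Cdc6 and Ftsj1 (0.998, 0.996 and 0.994), and closest to Ccnd3 were Tle3, St3gal5 and Uros (0.994, 0.993 and 0.992). These correlations run over 9 libraries that fall into 3 groups and share their scaling, and they are given as a description.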

How the data were processed

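The authors deposited 1 table of whole numbers for 43629 mouse gene identifiers in 9 libraries of c-KIT+ bone marrow RNA, in 3 groups of 3. Its unit is recorded as score: the deposited values look like read numbers divided by a factor per library and rounded, which was read from gaps among the low values, so raw depth is not known exactly and no count test was run. The submitters' processing notes name DESeq2, RSEM, STAR 2.4 and CASAVA 1.8.2, with GRCm38 as the build and no roles; the annotation release and the use of strand are not given in the sources used here. Symbols (42462 identifiers) and positions came from GENCODE M21.

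Genes with at least 10 in at least 3 libraries were kept, and log2(value + 1) of all 9 libraries entered 1 limma 3.58.1 model with group as the factor and its variance allowed to follow the mean. P-values are 2-sided and Benjamini-Hochberg adjusted over 15997 genes at 0.05. The pseudocount of 1 understates changes of low genes. The fit was also run on simulated data with known changes in a small part of the genes, in KI only. Far more genes were called in these data, so that run does not bear on the error rate here. Ratios of 2 members were compared by exact permutation of libraries. Levels per kilobase used the longest principal transcript, or merged exons as an alternative added after seeing the data.

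Members and gene lists were chosen with earlier results of these data known. Named from each list are up to 3 genes per direction and comparison with the smallest adjusted p; Rbl1, Mki67, Cdkn1c and Cdkn2c were named after their values were seen. Added are, for the 3 most variable members, the 3 best correlated genes. Replicates differed by 3.57 to 12.6 times counting noise and none were identical. Alternatives were other pseudocounts, filters and scalings, limma without trend, limma-voom, only the 2 groups compared, a replicate block and each library left out. Software was R 4.3.3 and Python 3.11.15.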

Additional observations from a re-analysis of the deposited data

How the results depend on the processing

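Of 690 refits of the 10 genes' differences (3 comparisons, 23 alternatives), 655 kept their side of the threshold and their sign. With the sign kept, 9 lost a call and 16 gained one. Signs changed in 10: in 4 for Ccnd1 in KI against WT (-0.16 to -0.0034), in 5 for Cdk4 (0.04 to 0.24) and in 1 for E2f1 in KI_Chd7del against WT. Members called in KI_Chd7del against KI went from 4 to 7 with upper-quartile factors, with quantile normalisation and with the column total without late neutrophil genes; the cause was not tested. A sign change that involved a call arose when libraries were scaled to column totals in KI_Chd7del against WT: Cdk4 0.24 (called), and E2f1 0.013, Fzr1 0.0069 and Cks1b 0.0015 (no longer called). Without late neutrophil genes in that total, E2f1 was -0.10 (adjusted p = 0.191). The call of Ccne1 in KI_Chd7del against KI was also lost in limma without trend (adjusted p = 0.0506), and that of Cdkn2a in KI_Chd7del against WT with a pseudocount of 16.

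Leaving out each library in turn gave 8095 to 9817 genes and 9 members called in KI against WT, 4657 to 6394 genes and 3 to 6 members in KI_Chd7del against KI, and 6273 to 7884 genes and 8 members in KI_Chd7del against WT. Same-numbered libraries of different groups correlated from -0.15 to 0.11 in their deviations from group means, with 1 of 9 pairs over 0.1. With 3 libraries per group this cannot show whether same-numbered libraries were matched, and the labels do not say. A replicate block called 9121, 5952 and 7411 genes and 9, 5 and 8 members in the 3 comparisons, adding Ccne2 in KI_Chd7del against KI (log2 0.23, adjusted p = 0.0368). The SE of Ccnd1 (0.18 in each comparison) was the largest among the 10 genes and limits what can be said of its differences.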
